A study of Homo sapiens with 6 samples.

Results

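The mRNAs described here encode the cargo of the cytotoxic granule in a human natural killer (NK) cell line in which the long non-coding RNA miR155HG was knocked down. They were chosen by name, with earlier results of these data known. They comprise 5 granzymes (GZMA, GZMB, GZMH, GZMK, GZMM), perforin (PRF1), granulysin (GNLY), serglycin (SRGN) and NKG7, which are 9 of the 36601 genes in the count table. All 9 were among the 12263 genes tested, which exceeded 1 CPM, a count scaled to a common library size, in 2 or more libraries. RNA was sequenced from NK-92, an NK lymphoma line that depends on IL-2 for growth, carrying either a control short hairpin RNA (shCtrl) or a hairpin against miR155HG (shmiR155HG), with 3 libraries in each group. Cells of both groups were stimulated for 12 h in 1000 U/mL IL-2 together with 10 ng/mL IL-12, so no unstimulated level was measured in these libraries. The labels do not say whether libraries of a group came from separate transductions or cultures, and p-values therefore measure the spread between these libraries, which may be technical.

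NK cells kill by fusing secretory lysosomes, the cytotoxic granules, with the membrane facing a target cell. Perforin makes pores in the target membrane, and granzymes, a family of serine proteases, pass through to cleave proteins in the target. Inside the granule these proteins are held on serglycin, a proteoglycan core, and granzymes are made as inactive precursors that cathepsin C activates by removing a dipeptide.

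Total counts ranged from 33454786 to 39157264 per library and TMM scaling factors from 0.9966 to 1.003. MIR155HG, the targeted gene, was counted 73, 67 and 62 times in the shCtrl libraries and 28, 19 and 10 times in those of shmiR155HG (log2 fold change -1.78, SE 0.43, edgeR quasi-likelihood adjusted p = 0.0045). MIR155HG passed the filter through shCtrl libraries only, since its shmiR155HG libraries stood at 0.299 to 0.7297 CPM. Such passage favours a lower call, which limits what this p-value shows. Of 10 NK cell markers, 9 were tested, and their summed level was 2279 to 2378 CPM in shCtrl and 2635 to 2681 CPM in shmiR155HG libraries, with NCR3 lower (log2 fold change -0.24) and IL2RB (0.34), KLRC1 (0.17) and CD96 (0.11) higher. The sum is weighted to IL2RB, which had the highest level, at 1006 CPM in shCtrl and 1270 CPM in shmiR155HG cells. The other 5 tested markers were not called: NCAM1 (log2 fold change 0.08), KLRD1 (0.10), CD2 (0.06), TYROBP (0.16) and FCER1G (-0.85). The median log2 fold change of the 9 tested markers was 0.0984, beside 0.000966 over all genes tested. Whether the markers rose as a set was not tested. The part of these markers in the cargo results was not tested. The adaptor FCER1G, at 1.81 and 1.004 CPM, and TYROBP, at 1.41 and 1.58 CPM in shCtrl and shmiR155HG cells, were near the lower limit of the test, and CD7 was under it. Of 15 markers of T, B, myeloid, mast and erythroid cells, 2 were tested and 4 had a count of 0 in every library. Without TRAC, the T cell receptor alpha constant gene, which had a mean of 72.4 CPM in both groups, the other 14 summed to between 1.90 and 2.74 CPM in every library.

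Granule cargo mRNA was lower in shmiR155HG than in shCtrl cells for 6 of the 9 genes and higher for none, against 8.02% of all genes tested called lower and 7.26% called higher (edgeR quasi-likelihood test, Benjamini-Hochberg adjusted p under 0.05, two-sided). The 6 were GZMB, GZMH, SRGN, GZMA, GZMK and PRF1, and in each of them the 3 shmiR155HG libraries lay below the 3 shCtrl libraries, a separation in either direction that 30.8% of all genes tested had. GNLY, GZMM and NKG7 overlapped between the groups. At an unadjusted p under 0.05 the edgeR test gave 7 lower and 0 higher, beside 14.1% and 13.2% of all genes. DESeq2 called 6 lower and 0 higher, beside 8.46% and 7.91% of all genes, and limma-voom 6 and 0, beside 7.84% and 7.22%. The median log2 fold change of the 9 genes was -0.25, beside 0.00 (0.000966) over all genes tested. Since the 9 were chosen with earlier results of these data known, these counts are no test of a set picked in advance. In bulk RNA, fewer cells making a transcript and less of it per cell cannot be told apart.

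**Figure D1:**
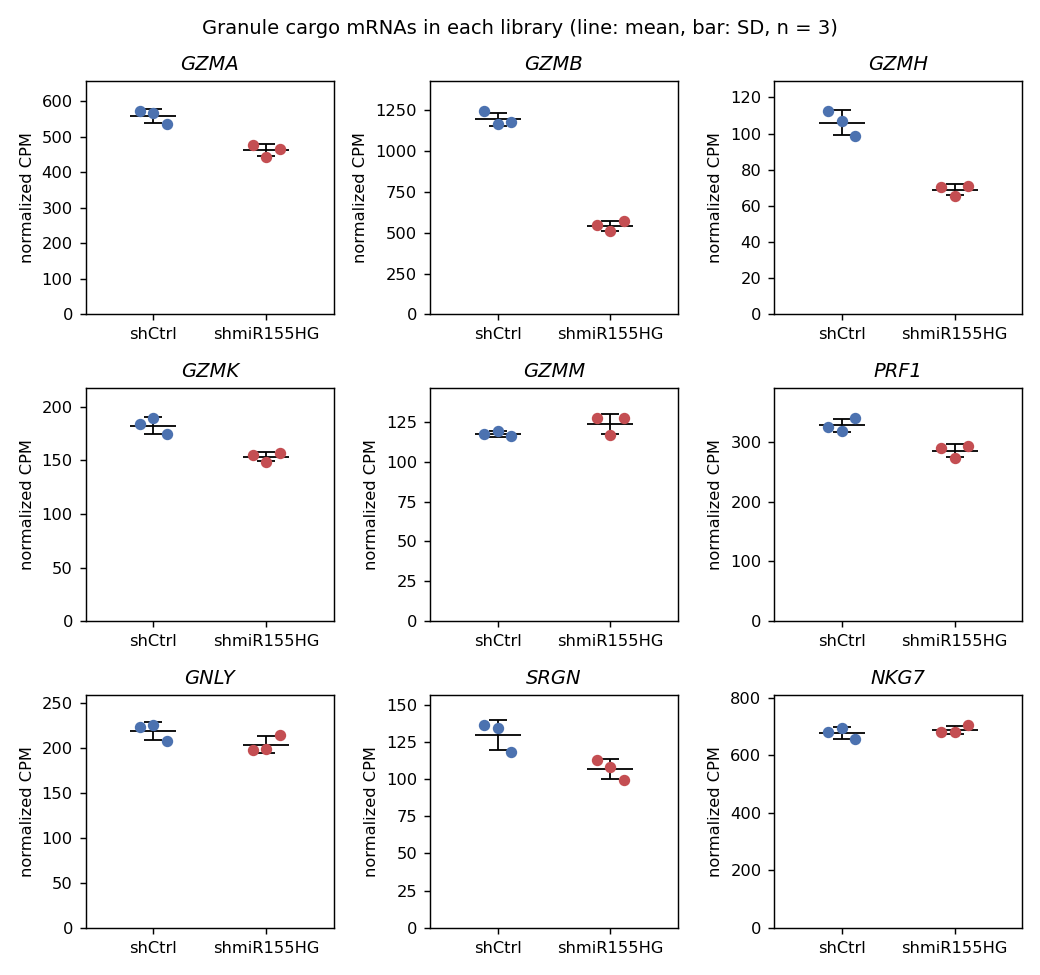
Level of each of the 9 mRNAs in TMM-normalized CPM (y axes, each starting at 0) in the 3 shCtrl (blue) and 3 shmiR155HG (red) libraries, replicates 1 to 3 from left to right, with the group mean (line) and SD (bar). GZMB separates most, at 1165 to 1244 CPM in shCtrl and 511.4 to 571.0 CPM in shmiR155HG libraries, while the points of GNLY, GZMM and NKG7 overlap.

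The size of the fall set GZMB and GZMH apart from the other 4. When edgeR's exact test was used with a minimum fold change of 1.2 and P under 0.01 without adjustment, 4 of the 9 were lower (GZMB, GZMH, GZMA and SRGN) and none higher, against 3.81% and 4.50% of all genes. This count changed with single libraries of either group. It was 2 without shCtrl replicate 1, 2 without shCtrl replicate 2 and 5 without shCtrl replicate 3. Leaving out shmiR155HG replicate 1, 2 or 3 gave 4, 3 and 3. GZMA and SRGN, at log2 fold changes of -0.27 and -0.28, lay near the 1.2-fold cut. When the change was tested against a threshold of 1.2-fold in place of 0 (glmTreat), 2 of the 9 were called lower, GZMB and GZMH, and none higher, against 0.636% and 0.864% of all genes. The 95% intervals of the log2 fold change of SRGN, GZMA, GZMK and PRF1 lay together between -0.39 and -0.12, whereas that of GZMB ended at -1.06 and that of GZMH at -0.50.

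**Figure D2:**
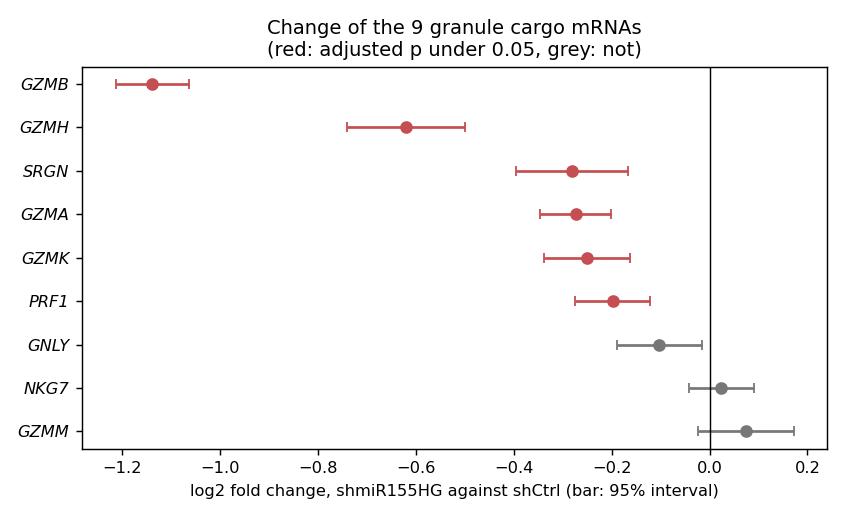
Log2 fold change of each mRNA in shmiR155HG against shCtrl cells (x axis) with its 95% interval (bar, 3 libraries per group), ordered from the largest fall. Red genes had an adjusted p under 0.05. GZMB (-1.14) and GZMH (-0.62) stand apart from SRGN, GZMA, GZMK and PRF1 (-0.28 to -0.20), and the intervals of GZMM and NKG7 span 0.

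GZMB encodes granzyme B, the granzyme that cleaves after aspartate and activates caspases in target cells. Its gene lies at chr14:24630954-24634267 on the minus strand of hg38 and has 5 exons in the transcript used here. GZMB had 1244, 1165 and 1177 CPM in shCtrl replicates 1, 2 and 3, and 546.3, 511.4 and 571.0 CPM in shmiR155HG replicates 1, 2 and 3. The group means were 1195 ± 42.5 and 542.9 ± 29.9 CPM (SD, n = 3 each), so the knockdown line held 45.4% of the control level (log2 fold change -1.14, SE 0.04, 95% interval -1.21 to -1.06, edgeR adjusted p = 7.03e-19). Every shmiR155HG library was far below every shCtrl library, and the within-group SD was a small part of the gap. In deposited counts these levels were 42507 to 48392 in shCtrl and 19095 to 20965 in shmiR155HG libraries. Ordered by CPM within a library, GZMB was the 47th to 51st most abundant gene in shCtrl and the 175th to 218th in shmiR155HG libraries. Among the 2664 tested genes whose mean reached 100 CPM, GZMB had the lowest log2 fold change.

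**Figure D3:**
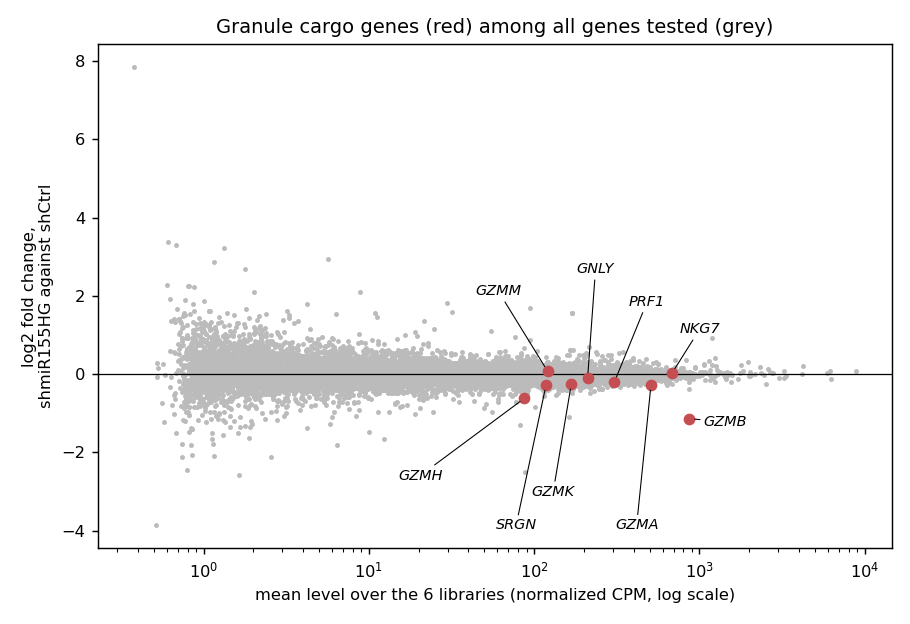
Log2 fold change in shmiR155HG against shCtrl cells (y axis) against the mean level over the 6 libraries in normalized CPM (x axis, log scale) for all 12263 genes tested (grey) and the 9 granule cargo genes (red). GZMB lies below every other gene whose mean reaches 100 CPM, and larger falls belong to genes of lower level.

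GZMH encodes granzyme H, a chymotrypsin-like granzyme and close paralog of granzyme B, and its gene (chr14:24606480-24609699, minus strand) lies 21.3 kb from GZMB. Its levels were 112.2, 106.8 and 98.56 CPM in shCtrl replicates 1, 2 and 3 and 70.31, 65.55 and 70.84 CPM in shmiR155HG replicates 1, 2 and 3. The means of 105.9 ± 6.88 and 68.9 ± 2.91 CPM (SD, n = 3) did not overlap in any library (log2 fold change -0.62, SE 0.06, 95% interval -0.74 to -0.50, edgeR adjusted p = 1.03e-08). GZMB fell further than its neighbour, with 10.9 to 11.9 GZMB counts per GZMH count in shCtrl and 7.77 to 8.06 in shmiR155HG libraries. How the counting divided reads between such similar genes is not stated, so the GZMH values carry that uncertainty, and its part in the result was not tested. AL136018.1, a gene on the opposite strand that overlaps both, had 0 to 9 counts per library.

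The promoter sequences of this gene pair are shown because both genes fell, and that of NKG7 because its level did not separate the groups. They are the parts of the RefSeq promoter windows (GRCh38.p14) that lie upstream of every annotated transcript of the gene, read 5′ to 3′ on the minus strand. Capitals mark matches, on either strand, to the RUNX motif TGTGGT, the AP-1 motif TGANTCA or the cyclic AMP response core TGACGT, each of which binds a family of transcription factors active in lymphocytes.
GZMB, chr14:24634268-24634440: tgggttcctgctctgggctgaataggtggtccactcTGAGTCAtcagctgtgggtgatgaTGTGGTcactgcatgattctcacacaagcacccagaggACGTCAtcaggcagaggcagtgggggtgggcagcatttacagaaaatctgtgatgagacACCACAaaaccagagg
GZMH, chr14:24609700-24609935: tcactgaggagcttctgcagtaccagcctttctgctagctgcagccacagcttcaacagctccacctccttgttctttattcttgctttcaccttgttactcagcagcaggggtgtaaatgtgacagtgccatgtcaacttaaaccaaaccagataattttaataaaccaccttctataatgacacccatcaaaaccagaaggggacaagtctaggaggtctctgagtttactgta
NKG7, chr19:51372702-51372904: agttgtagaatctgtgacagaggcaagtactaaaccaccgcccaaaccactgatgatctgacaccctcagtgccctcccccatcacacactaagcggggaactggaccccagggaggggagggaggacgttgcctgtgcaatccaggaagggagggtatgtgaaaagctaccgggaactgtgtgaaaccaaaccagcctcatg

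The GZMB stretch holds 4 matches, and those of GZMH and NKG7 hold 0. A window was at hand for 6 of the 9 genes, GZMA, GZMB, GZMH, PRF1, GNLY and NKG7. TGTGGT or its complement ACCACA stood in 4 of the 6 windows (GZMA, GZMB, PRF1 and GNLY), where 13.1% of 35116 promoter windows of the same length hold it. TGANTCA stood in 1 of 6, GZMB, against 7.71% of all windows, and TGACGT or ACGTCA in 1 of 6, again GZMB, against 7.98%. The T-box motif AGGTGTNA or its complement TNACACCT (2.61% of windows) and the STAT motif TTCNNNGAA (7.66%) stood in 0 of 6. Of the 4 genes with TGTGGT, GZMA, GZMB and PRF1 were called lower and GNLY was not, where 8.02% of all genes tested were called lower. Of the genes whose window lacked it, GZMH was called lower and NKG7 was not. GZMK and SRGN, also called lower, had no window. Whether the motif goes with the fall was not tested.

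GZMA and GZMK encode the trypsin-like granzymes A and K, which cleave after basic residues and lie 68.1 kb apart on chromosome 5 (GZMA chr5:55102646-55110252 and GZMK chr5:55024256-55034570, both on the plus strand). GZMA had 571.2, 567.6 and 535.5 CPM in shCtrl and 477.5, 443.5 and 464.3 CPM in shmiR155HG replicates 1, 2 and 3 (means 558.1 ± 19.7 and 461.8 ± 17.2 CPM, SD, log2 fold change -0.27, SE 0.04, edgeR adjusted p = 2.25e-06). GZMK had 183.8, 189.4 and 174.5 CPM in shCtrl and 155.5, 148.4 and 156.7 CPM in shmiR155HG replicates 1, 2 and 3 (means 182.6 ± 7.54 and 153.5 ± 4.47 CPM, SD, log2 fold change -0.25, SE 0.04, edgeR adjusted p = 1.22e-04). For both genes the highest shmiR155HG library stayed below the lowest shCtrl library. The ratio of GZMA to GZMK counts was 2.996 to 3.107 in shCtrl and 2.96 to 3.07 in shmiR155HG libraries, which overlapped (log2 difference -0.02, exact permutation p = 0.3, adjusted over 6 ratios p = 0.3). AC034238.1, which overlaps GZMK on the opposite strand, had 139 to 230 counts against 5240 to 7152 for GZMK.

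GZMM encodes granzyme M, a protease with a preference for methionine and leucine, and lies in a cluster of myeloid serine protease genes on chromosome 19 (chr19:544034-549924, plus strand). It had 117.4, 119.6 and 116.0 CPM in shCtrl and 127.4, 116.7 and 127.4 CPM in shmiR155HG replicates 1, 2 and 3. The second shmiR155HG library lay among the control libraries, and the groups overlapped. Its log2 fold change was 0.07 (SE 0.05, 95% interval -0.02 to 0.17, edgeR adjusted p = 0.34), an interval that lies above those of the other 4 granzymes. Of 10 neighbouring genes chosen on chromosomes 5, 14 and 19, 3 passed the filter, and none on chromosome 14. The surroundings of GZMB and GZMH were therefore not tested with this list, and other genes there were not looked at. ESM1 and CDC20B, near GZMK and GZMA, had SEs of 0.32 and 0.40 on the log2 scale, too wide to show changes of the size seen in those granzymes. BSG, near GZMM, stood at 309.1 ± 5.51 and 314.4 ± 1.597 CPM in shCtrl and shmiR155HG cells (SD, log2 fold change 0.02, SE 0.03, edgeR adjusted p = 0.71). CTSG, which encodes cathepsin G beside GZMH, and ELANE, which encodes neutrophil elastase near GZMM, had a count of 0 in every library.

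PRF1 (chr10:70597348-70602759, minus strand) encodes perforin. Its levels were 324.8, 318.2 and 339.6 CPM in shCtrl and 289.7, 273.8 and 293.2 CPM in shmiR155HG replicates 1, 2 and 3. The fall to means of 285.5 ± 10.3 from 327.6 ± 11.0 CPM (SD, n = 3) was the smallest of the 6 that passed the edgeR test (log2 fold change -0.20, SE 0.04, 95% interval -0.28 to -0.12, adjusted p = 4.19e-04). There were 3.46 to 3.83 GZMB counts per PRF1 count in shCtrl libraries and 1.87 to 1.95 in shmiR155HG libraries. PALD1, which overlaps PRF1 on the opposite strand, had 37 to 65 counts per library.

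GNLY (chr2:85685175-85698852, plus strand) encodes granulysin, a saposin-like protein that permeabilizes microbial membranes. Its levels were 222.8, 225.1 and 207.0 CPM in shCtrl and 197.3, 198.7 and 213.9 CPM in shmiR155HG replicates 1, 2 and 3. The third library of each group crossed over into the range of the other group, and the difference did not pass the test (log2 fold change -0.10, SE 0.04, 95% interval -0.19 to -0.02, edgeR adjusted p = 0.11, unadjusted p = 0.022). Without shCtrl replicate 3 the log2 fold change was -0.14 with an edgeR adjusted p of 0.024, so the call of GNLY depends on this library. The ratio of GNLY to PRF1 counts, 0.609 to 0.707 in shCtrl and 0.681 to 0.730 in shmiR155HG libraries, overlapped between the groups.

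SRGN (chr10:69088103-69104805, plus strand) encodes the serglycin core protein. It had 136.3, 134.4 and 118.1 CPM in shCtrl and 112.7, 107.9 and 99.45 CPM in shmiR155HG replicates 1, 2 and 3. Replicate 3 was the lowest of its group on both sides, and the groups were separated by the gap from 112.7 to 118.1 CPM (means 129.6 ± 9.99 and 106.7 ± 6.69 CPM, SD, log2 fold change -0.28, SE 0.06, edgeR adjusted p = 6.67e-04). Relative to GZMB, serglycin mRNA was more abundant after the knockdown, with 0.1004 to 0.1153 SRGN counts per GZMB count in shCtrl and 0.174 to 0.211 in shmiR155HG libraries.

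NKG7 (chr19:51371606-51372701, minus strand) encodes a membrane protein of the granule wall that takes part in degranulation. Its levels were 681.7, 695.1 and 656.0 CPM in shCtrl and 680.5, 681.4 and 705.4 CPM in shmiR155HG replicates 1, 2 and 3. These ranges overlapped, and the 95% interval of its log2 fold change (0.02, SE 0.03, interval -0.04 to 0.09, edgeR adjusted p = 0.69) lay above the intervals of the 6 genes called lower.

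The 9 mRNAs together made up 3422 to 3594 CPM in shCtrl and 2547 to 2702 CPM in shmiR155HG libraries, with means of 3513 ± 86.4 and 2635 ± 79.7 CPM (SD, n = 3), a sum 25.0% lower. GZMB alone accounted for 74.4% of that difference in summed level. Without GZMB the sum was 2317 ± 62.4 CPM in shCtrl and 2093 ± 50.1 CPM in shmiR155HG cells, 9.68% lower.

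Levels of different genes were compared per kilobase of the transcript used. In shCtrl cells GZMB stood first at 1341 ± 47.7 CPM per kb, followed by NKG7 at 875.4 ± 25.7, GZMA at 622.9 ± 21.9 and GNLY at 280.9 ± 12.7 CPM per kb (SD, n = 3), and none of these neighbours overlapped. PRF1, GZMM, GZMK, GZMH and SRGN followed at 131.0 to 106.5 CPM per kb, each overlapping the next, so their order in shCtrl cells does not exceed the spread between libraries. In shmiR155HG cells NKG7 stood first at 890.3 ± 18.3 and GZMB was next at 609.3 ± 33.6 CPM per kb, ahead of GZMA at 515.4 ± 19.2. The lower 5 no longer overlapped one another, with GZMM at 134.0, PRF1 at 114.2, GZMK at 101.9, SRGN at 87.7 and GZMH at 73.6 CPM per kb.

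The make-up of granzyme mRNA differed between the groups. On the scale per kb, GZMB was 57.7% ± 0.93 of the 5 granzymes in shCtrl and 42.5% ± 0.81 in shmiR155HG cells (SD, n = 3), a difference of -15.2 percentage points. The share of GZMA was 26.8% ± 0.56 and 35.9% ± 0.74, that of GZMM 5.48% ± 0.17 and 9.34% ± 0.085, and that of GZMK 5.21% ± 0.20 and 7.11% ± 0.10. GZMH held nearly the same share, 4.86% ± 0.18 and 5.13% ± 0.0062. For all 5 shares the groups were fully separated (exact two-sided permutation p = 0.1, the smallest that 3 against 3 libraries allow, so no share could reach 0.05). Shares of one total are not independent, since a lower GZMB level raises the share of the other 4 without a change in their own level.

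**Figure D4:**
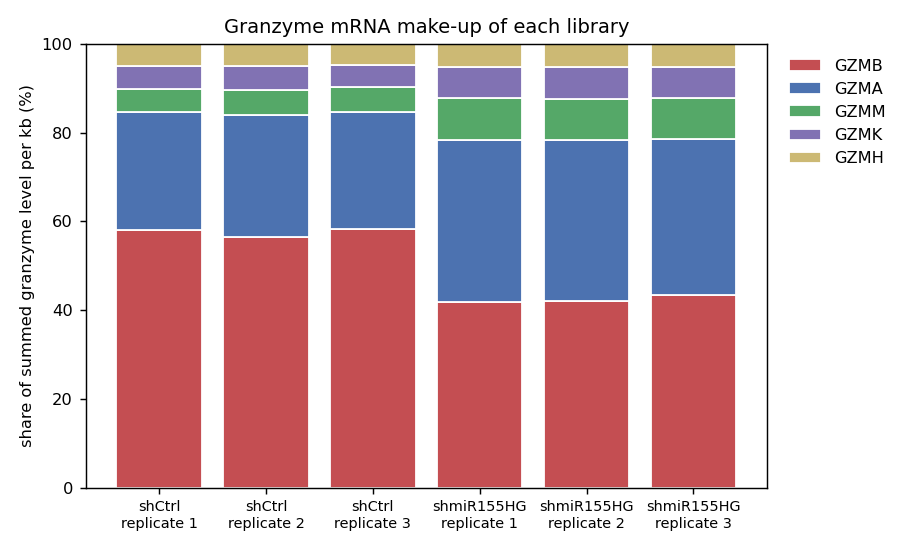
Share of each granzyme in the summed granzyme level per kb (y axis, percent) in each of the 6 libraries (x axis). The GZMB part is 56.6% to 58.3% in shCtrl and 41.9% to 43.4% in shmiR155HG libraries, and the GZMA part grows from 26.4% to 27.4% to between 35.1% and 36.4%.

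Ratios between members within a library need no scaling between libraries, but they rest on the same counts as the fold changes above. Of 6 ratios compared, 4 did not overlap between the groups, each with an exact permutation p of 0.1 (0.15 adjusted over the 6): GZMB to GZMA (log2 difference -0.87), GZMB to PRF1 (-0.94), GZMB to GZMH (-0.52) and SRGN to GZMB (0.86). All 4 hold GZMB, the member with the largest fall, so they restate that fall and add no support. Ratios between genes outside the cargo were not computed. In counts, GZMB exceeded GZMA 2.05 to 2.20 times in shCtrl and 1.14 to 1.23 times in shmiR155HG libraries. The ratios of GZMA to GZMK and of GNLY to PRF1 overlapped.

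Granzymes need activation, sorting and, for the cell's own protection, inhibitors. Of 15 such genes, 13 were tested, and 4 were lower, none higher and 9 not called, with a median log2 fold change of -0.13, against 8.02% of all genes lower and 7.26% higher. At an unadjusted p under 0.05 in the edgeR test, 6 were lower and 0 higher, against 14.1% and 13.2% of all genes. This list and those after it were also chosen with earlier results known, and the shares of all genes were not matched for level. The 4 were CTSC, cathepsin C, which activates granzyme precursors (703.3 ± 16.3 CPM in shCtrl and 575.6 ± 13.6 CPM in shmiR155HG cells, SD, n = 3, log2 fold change -0.29, edgeR adjusted p = 1.92e-07), SERPINB1, a serpin that inhibits neutrophil-type proteases and granzyme H (-0.25, adjusted p = 2.66e-04), CTSW, a cathepsin of NK and T cells (-0.16, adjusted p = 4.31e-04), and CALR, a chaperone that binds perforin (-0.13, adjusted p = 0.0083). The log2 fold change of CTSC was close to those of GZMA and SRGN. SERPINB9, the inhibitor of granzyme B, stood at 294.1 ± 10.4 and 300.6 ± 4.36 CPM (SD), with a log2 fold change of 0.03 (SE 0.04, edgeR adjusted p = 0.63).

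Another list held genes that carry granules to the membrane and fuse them. Of 17 tested, 3 were lower, 1 higher and 13 not called, with a median log2 fold change of -0.04, against 8.02% of all genes lower and 7.26% higher, so the share called higher is near that of all genes. At an unadjusted p under 0.05 in the edgeR test, 4 were lower and 3 higher, against 14.1% and 13.2%. RAB27A, the GTPase that docks granules, was lower by a small margin (218.7 ± 6.35 CPM in shCtrl and 200.9 ± 4.74 CPM in shmiR155HG cells, SD, log2 fold change -0.12, edgeR adjusted p = 0.032), as was its effector SYTL2 (-0.29, edgeR adjusted p = 0.003). STXBP2, the Munc18 protein required for granule fusion, was higher (0.18, edgeR adjusted p = 0.031). SYTL1, another RAB27A effector, had 45, 41 and 24 counts in shCtrl and 4, 3 and 0 counts in shmiR155HG replicates 1, 2 and 3 (edgeR adjusted p = 3.03e-04), a level so low that its fold change is imprecise. SYTL1 passed the filter through shCtrl libraries only, which favours a lower call, and it is 1 of the 3 counted as lower. UNC13D, which primes granules, and STX11, the syntaxin of the fusion step, were not called (-0.06 and -0.01).

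Transcription factors known to act on effector genes in lymphocytes formed the last list. Of 15 tested, 7 were higher, none lower and 8 not called, with a median log2 fold change of 0.14, against 7.26% of all genes higher and 8.02% lower. At an unadjusted p under 0.05 in the edgeR test, 8 were higher and 0 lower, against 13.2% and 14.1%. The 3 largest rises were those of RUNX3 (156.3 ± 2.73 CPM in shCtrl and 219.4 ± 4.79 CPM in shmiR155HG cells, SD, n = 3, log2 fold change 0.49, edgeR adjusted p = 5.17e-10), FOS (0.36, adjusted p = 0.034) and EOMES (0.32, adjusted p = 7.75e-07). The other 4 called, named after their values were seen, were TBX21, which encodes T-bet (0.27, edgeR adjusted p = 4.99e-06), PRDM1 (0.28, adjusted p = 0.016), STAT5A, a STAT of the IL-2 response (0.26, adjusted p = 5.51e-04), and IKZF3 (0.19, adjusted p = 2.34e-04). Of the other STAT genes in the list, STAT3 (0.02), STAT4 (-0.03) and STAT5B (0.01) were not called.

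**Figure D5:**
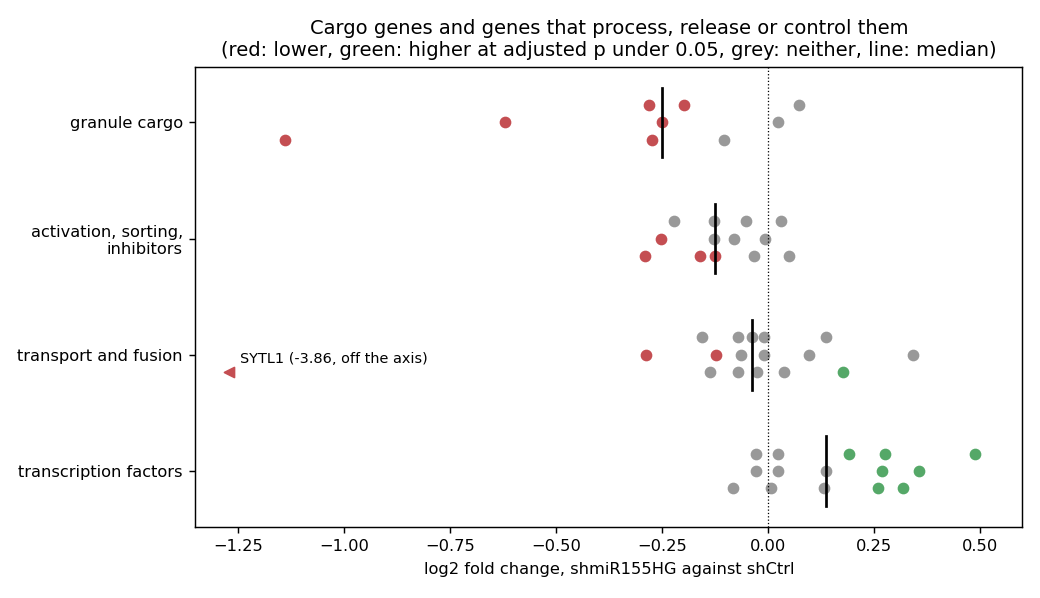
Log2 fold change in shmiR155HG against shCtrl cells (x axis) of each tested gene among the granule cargo, the genes for granzyme activation, sorting and inhibition, the genes for granule transport and fusion, and the transcription factors (rows), with the list median as a line. Medians run from -0.25 for the cargo through -0.13 and -0.04 to 0.14 for the transcription factors, and SYTL1 (-3.86, 0 to 45 counts) is drawn as an arrow at the axis end.

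The pattern of GZMB over the 6 libraries was compared with those of the 2663 other genes whose mean reached 100 CPM, by the root mean square difference of log2 CPM centred on the shCtrl mean. Centred this way, the difference rests mostly on the change between the groups. Genes near GZMB were therefore picked for a fall, and their p-values below describe that choice and are no separate support. The nearest was ITGA6, the integrin alpha-6 subunit (difference 0.236), with 129.7 ± 5.90 CPM in shCtrl and 73.0 ± 3.06 CPM in shmiR155HG cells (SD, n = 3, log2 fold change -0.83, edgeR adjusted p = 4.66e-12). MATR3, a nuclear matrix protein gene, followed (0.272), but the table holds 2 entries under this symbol, and the entry that fell had 6816 to 11531 counts in shCtrl while the other had 7010 to 11597, with the high library of one being the low library of the other. In shmiR155HG libraries the entry that fell had 3170 to 4268 counts, while the other was higher than in shCtrl, at 13420 to 14601 counts. The change of the entry that fell did not pass the test (log2 fold change -1.09, edgeR adjusted p = 0.06). Reads may be divided between the entries, which was not tested, so this value does not measure MATR3 as a whole. MMP25, a membrane-anchored matrix metalloproteinase gene, came next (0.422, log2 fold change -0.56, edgeR adjusted p = 7.41e-09).

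MIR155HG is also the host transcript of miR-155, whose RefSeq mature 5p sequence is shown with its seed, bases 2 to 8, in capitals because its sites were searched for in the cargo genes.
hsa-miR-155-5p, chr21:25573983-25574006, plus strand: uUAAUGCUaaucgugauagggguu
The complementary site AGCATTA was found in the annotated 3′UTR of 0 of the 9 cargo genes, where 11.9% of 10763 tested genes with a 3′UTR hold it. The 3′UTRs of the 9 are 70 to 705 bases long, and length was not taken into account. With so few genes, 0 is not read as fewer than the share of all genes. Mature miRNAs were not measured in these poly(A) libraries.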

How the data were processed

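Poly(A) RNA of 3 shCtrl and 3 shmiR155HG libraries was sequenced as paired reads. HISAT2 alignment to hg38 and StringTie quantification of annotated transcripts were done by the authors, who deposited counts per gene without normalization. These come from prepDE.py3, which derives counts from coverage and an assumed read length. That length is not given, so the counts, small ones included, may be off by a common factor from the number of reads, and halved counts were run as an alternative. Tool versions, the annotation release and the use of strand are not given in the sources used here. Treatment tags of shmiR155HG replicates 2 and 3 carry another number in the gene's name, and their titles were followed.

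The analysis used edgeR 4.0.16 in R 4.3.3. The 12263 of 36601 genes above 1 CPM in 2 or more libraries were tested, with TMM scaling. The test was the edgeR quasi-likelihood test (robust fit, no replicate block) with Benjamini-Hochberg adjustment over all genes tested, and a gene was called at an adjusted p under 0.05. CPM values are TMM-normalized, errors are SDs between libraries or SEs of the log2 fold change, and intervals are at 95%. Shares and ratios were compared by exact permutation of libraries with scipy 1.17.1. Positions, exons and transcript lengths are from a GENCODE annotation of hg38 that may not be the release used for counting. The edgeR quasi-likelihood fit was tested on counts simulated with a common dispersion. The other steps were not tested on simulated data.

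The members and all gene lists were chosen with earlier results of these data known. Genes named in the text were all 9 members, MIR155HG, the called genes of each list (or, where more than 6 were called, the 3 largest rises and falls) and the 3 genes nearest to GZMB in pattern. Others, such as uncalled list genes and TBX21, were named after their values were seen. Alternatives were other scalings, filters and tests (DESeq2 1.42.0, limma-voom with limma 3.58.1, glmTreat), halved counts, a replicate block and each library left out.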

Additional observations from a re-analysis of the deposited data

How the results depend on the processing

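Each log2 fold change of the 9 granule cargo genes was recomputed under 16 alternatives, and 0 of 144 values changed sign. GZMB ranged from -1.17 to -1.10 and GZMH from -0.67 to -0.57, with the highest edgeR, DESeq2 or limma adjusted p at 7.79e-13 and 3.16e-05. The number of the 9 called lower was 6 to 7 when 1 library was left out, 7 being reached without shCtrl replicate 3 through GNLY. It was 2 under glmTreat with a threshold of 1.2-fold, where GZMA, GZMK, PRF1 and SRGN each had an adjusted p of 1.0. The null hypothesis of glmTreat is a change no larger than 1.2-fold, so these genes were not shown to exceed it. By the exact test with an unadjusted P under 0.01 and a 1.2-fold change the number called lower was 4, and 2 to 5 when 1 library was left out. Over all genes, glmTreat called 78 lower and 106 higher in place of 984 and 890, and 580 were called higher without shmiR155HG replicate 2. Halved counts gave 6 lower and none higher. With a replicate block, 6 of the 9 were again lower and none higher. Replicate numbers did not pair the libraries, with correlations of same-numbered deviations of -0.0179, 0.000983 and 0.00348. Counting depth does not limit the cargo genes, which had at least 2369 counts per library, but 3 libraries per group do, and MIR155HG itself rests on 10 to 73 counts.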
